A study of Homo sapiens with 6 samples.

Results

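The places where the glycolytic enzyme GAPDH contacted RNA in MOLM-13 cells grown with galactose were set against those in cells grown with low glucose. The MOLM-13 line derives from human acute myeloid leukaemia, and the contacts had been mapped by CLIP-seq, in which UV light crosslinks protein to RNA and an antibody then recovers the protein with its RNA. The comparison used 4 of the 6 samples of the series, 2 grown under galactose conditions and 2 under low glucose conditions, and left the 2 normal glucose samples aside. All were of the same cell line, the conditions differed in the sugar of the medium as far as the labels say, and the labels do not say whether the samples of a condition were separate cultures. Per the study's aims, the change of sugar was meant to move the energy supply of the cells away from glycolysis. The authors had joined both samples of a condition into 1 list of peaks, and the lists give positions and gene names only. Counted as distinct chromosome, start and end, there were 337 peaks in galactose and 484 in low glucose. A peak that overlapped a peak of the other list by at least 1 nt was called shared. No spread between samples, read number or strand can be read from such lists, and the sequencing depth is unknown. The values below therefore describe 1 list against the other, and the exact (Clopper-Pearson) 95% intervals of shares and the Newcombe 95% intervals of their differences cover counting error over peaks only.

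GAPDH catalyses a central step of glycolysis and also binds RNA, including AU-rich stretches and tRNA, although it has no classical RNA-binding domain. Transfer RNAs carry amino acids to the ribosome, and ribosomal RNA, small nuclear RNA (snRNA) and small nucleolar RNA (snoRNA) build the ribosome, the spliceosome and the particles that modify RNA. In an mRNA, the 5' untranslated region (5'UTR) comes before the coding sequence (CDS) and is scanned by the ribosome before translation begins.

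The sequences below show, on the strand of the gene in hg38, 30 nt of genomic DNA around the middle of peaks that carry the comparison, with the middle base in capitals. The study extended isolated crosslink sites, and no peak was narrower than 101 nt. A peak of that width was here read as 1 site with 50 nt on each side, so that its middle is taken for the crosslink site. Shared sites are shown for RPS29 (chr14:49586360-49586389, minus strand), which encodes a protein of the small ribosomal subunit, and for NFKBIA (chr14:35404630-35404659, minus strand), the inhibitor of NF-kappa-B. Sites found in galactose only are shown for CCNI (chr4:77075676-77075705, minus strand), which encodes cyclin I, and ANKRD50 (chr4:124712705-124712734, minus strand), an ankyrin repeat protein of endosomal sorting. Sites found in low glucose only are shown for EEF2 (chr19:3977961-3977990, minus strand), the elongation factor that moves the ribosome along the mRNA, and for the transcript of GAPDH itself (chr12:6537089-6537118, plus strand). The GAPDH peak was 102 nt wide, so its middle stands for 2 neighbouring positions, and 18 of the 30 bases shown lie in the exon. For RPS29, 21 of the 30 bases are exonic, and for ANKRD50, 28.
RPS29: ggccagcttcttcctTttacctcgttgcac
NFKBIA: cagctcgtccgcgccAtgttccaggcggcc
CCNI: ctgaccgacccagcgGccgcagccgtgcgt
ANKRD50: acagttactgccctgAcggcggcggcggcg
EEF2: gcgctacctggccgaGaagtacgagtggga
GAPDH: tctctgctgtaggctCatttgcagggggga

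Of the galactose peaks, 192 of 337 (57.0%, interval 51.5 to 62.3%) met a peak of low glucose, and 192 of 484 low glucose peaks (39.7%, interval 35.3 to 44.2%) overlapped a galactose peak. That left 145 peaks found in galactose only and 292 in low glucose only. Merged into regions, the lists held 628 places, of which 191 (30.4%, interval 26.8 to 34.2%) had a peak of each. Few single-list peaks lay close to a peak of the other list. Within 50 nt of a peak of the other list lay 9 of 145 galactose only peaks and 7 of 292 low glucose only peaks, and within 1000 nt lay 29 and 38.

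The shared peaks sat at nearly the same nucleotides in both lists. Of 193 overlapping pairs, 114 (59.1%, interval 51.8 to 66.1%) had identical start and end and a further 33 were shifted by at most 2 nt. Where both peaks of a pair were single sites of 101 nt, 46 of 56 pairs were identical. This differed between kinds of gene. Identical pairs made up 42 of 57 on tRNA genes, 11 of 14 on snRNA genes and 20 of 31 in introns of protein coding genes, but 6 of 16 on snoRNA or scaRNA genes and 7 of 36 in exons of protein coding genes (19.4%, interval 8.19 to 36%). Of all pairs, 25 were shifted by over 50 nt, 9 of them in exons of protein coding genes and 6 on snoRNA or scaRNA genes. Of the 79 pairs that were not identical, the low glucose peak was wider in 38, the galactose peak in 29, and the widths were equal in 12.

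Genes of structural RNA held most of the shared peaks, and exons of protein coding genes held most of the others. Each peak was given 1 kind from the genes under it, with tRNA, rRNA, snRNA, snoRNA or small Cajal body RNA (scaRNA), other small RNA and the 45S rRNA units, the precursors of the large rRNAs, placed first. These structural RNA genes took 58.9% of shared peaks, 26.2% of galactose only peaks and 18.2% of low glucose only peaks. Shared exceeded galactose only by 32.6 percentage points (interval 22.2 to 42) and low glucose only by 40.7 points (interval 32.1 to 48.5). Exons of protein coding genes took 18.8% of shared, 56.6% of galactose only and 53.8% of low glucose only peaks. The majority of structural RNA genes holds for this order of kinds. A class by annotated gene alone sets tRNA genes and 45S units aside and counts introns with their genes. By that class, protein coding genes took 47.4% of shared peaks, and 58.3% when placed before small RNA. In the share of exonic peaks the single-list groups differed from each other by 2.78 points, with an interval that includes 0 (-7.11 to 12.5).

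**Figure D1:**
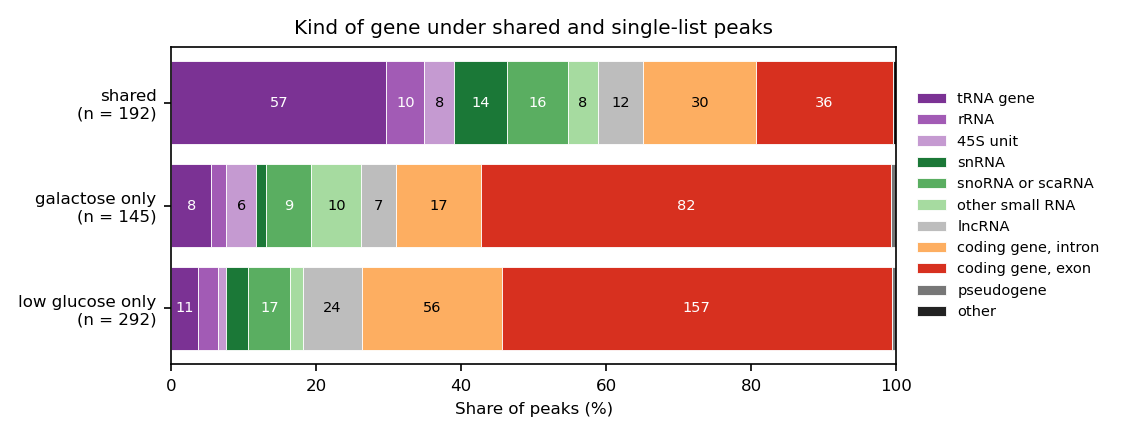
Share of peaks (%) on each kind of gene, for 192 shared peaks (galactose version), 145 galactose only and 292 low glucose only peaks, with peak numbers printed where they fit. The tRNA segment holds 57 shared peaks against 8 and 11 single-list peaks, and the exon segment holds 36 against 82 and 157.

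Seen from the genes, a galactose peak on a tRNA gene was shared in 57 of 65 cases (87.7%, interval 77.2 to 94.5%) and a low glucose peak in 57 of 68 (83.8%, interval 72.9 to 91.6%). For exonic peaks of protein coding genes the counts were 36 of 118 (30.5%, interval 22.4 to 39.7%) and 36 of 193 (18.7%, interval 13.4 to 24.9%). Peaks on tRNA genes were thus shared more often than exonic ones by 57.2 points in galactose (interval 43.7 to 66.8) and by 65.2 points in low glucose (interval 53 to 73.6). Peaks on snRNA genes came near to tRNA genes in galactose, with 14 of 16 shared, and less so in low glucose, with 14 of 23. Peaks in introns that met no small RNA gene were shared in 30 of 47 cases in galactose (63.8%, interval 48.5 to 77.3%) and 31 of 87 in low glucose (35.6%, interval 25.6 to 46.6%). The base composition moved with the kind of gene. The median GC content was 55% in shared peaks (interval 52.8 to 56.7%), 65.3% in galactose only peaks (interval 62.4 to 67.3%) and 62.4% in low glucose only peaks (interval 60.4 to 64.4%), while in exons the medians lay at 68.3, 67.8 and 66.7%.

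The peaks on tRNA genes had a shape of their own. Of 443 nuclear tRNA genes in the RefSeq table of GRCh38.p14, 76 met a peak, 57 in both lists, 8 in galactose only and 11 in low glucose only. They were matched by position, and since the lists give no strand, RNA of the tRNA and of the transcript around it cannot be told apart. Of 133 peaks on a single tRNA gene, 56 were wider than 150 nt, with a median of 178 nt and a range of 170 to 194 nt. With 50 nt taken off each side, on the assumption that merged sites had been extended like isolated ones, the span of all 56 began and ended within 10 nt of the ends of the tRNA gene. The lower end, on the plus strand, lay at a median of 3 nt outside the gene (range 1 to 4 nt). The narrower peaks kept to the same borders. Of 71 peaks of up to 110 nt, 54 had their middle within 10 nt of an end of the tRNA gene. The full-length form was found at shared places alone among these peaks, in 29 of 57 shared tRNA peaks of galactose and in 0 of 19 single-list tRNA peaks, which allows a share of up to 17.6%.

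Both ends of a tRNA gene are shown for TRD-GTC2-11, an aspartate tRNA gene within the lncRNA LINC00324, as an example of the full-length form. Plus strand sequence of hg38 is given, with the bases of the tRNA gene in capitals, 15 nt to each side of the border. The windows are chr17:8222223-8222252 and chr17:8222295-8222324. Identical peaks of 176 nt in both lists spanned 8222236 to 8222311 without the extension, against 8222238 to 8222309 for the gene. The span thus ran 2 nt past the gene on either side.
TRD-GTC2-11 lower end: aaaactgctagtactCTCCCCGTCGGGGAA
TRD-GTC2-11 upper end: CTATACTAACGAGGAgggacctgtagagac

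**Figure D2:**
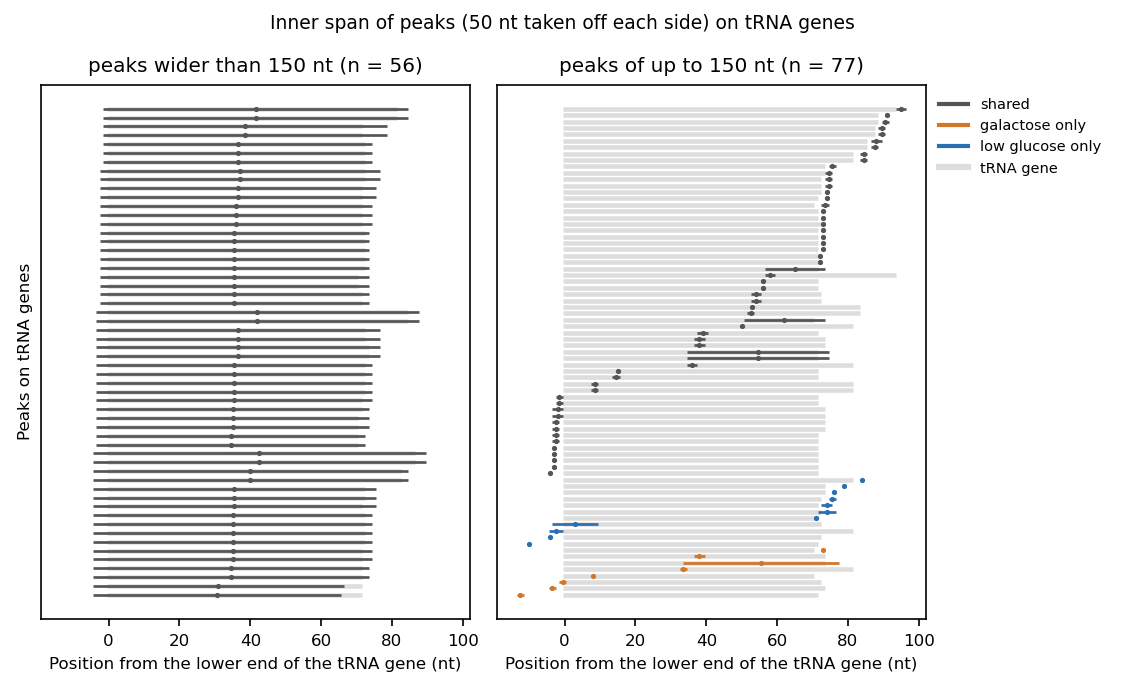
Span of the 133 peaks on single tRNA genes after removal of 50 nt from each side (coloured lines, dots mark the middle), drawn from the lower genomic end of the tRNA gene (nt, grey bars show each gene), for 56 peaks wider than 150 nt and 77 narrower ones. The wide ones cover the gene from end to end and are all shared, while most narrow ones sit at an end.

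Most kinds of tRNA were met in both lists. Counting initiator methionine and selenocysteine apart, 21 kinds had a peak in the pair, and 19 of these had a peak in each list. No phenylalanine tRNA gene had a peak. Glycine tRNA genes had peaks at 9 genes, 7 in both lists and 2 in galactose only. Arginine tRNA genes also had peaks at 9, of which 7 were in both and 2 in low glucose only. All 4 aspartate and all 4 valine tRNA genes with a peak were in both lists. The only gene found for tryptophan, TRW-CCA2-1, had its peak in low glucose, and the only one for elongator methionine, TRM-CAT6-1, in galactose. The tRNA genes and amino acids named here were chosen after their counts were seen.

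The mRNA sites found in 1 list only lay at different places along the mRNA. Exonic peaks were taken here without those over tRNA, rRNA or small RNA genes. Among exonic peaks with the middle in an annotated region, the 5'UTR held 60% of shared, 53.2% of galactose only and 35.3% of low glucose only peaks. Galactose only exceeded low glucose only by 17.9 points (interval 4.53 to 30.6). The coding sequence held 34.3, 46.8 and 59% of these peaks, with 12.1 points fewer in galactose only than in low glucose only and an interval that includes no difference (-25.1 to 1.28). The 3'UTR held 0 of 79 galactose only peaks (interval 0 to 4.56%) and 5.77% of low glucose only peaks. The difference was -5.77 points (interval -10.6 to -0.401). With introns and tRNA genes kept, the 3'UTR held 1.94% of galactose only and 4.13% of low glucose only peaks of protein coding genes. That difference was -2.19 points, with an interval that includes 0 (-5.99 to 3.05). Over all properties compared between the 3 groups of peaks, 96 differences were computed, and 38 had an interval without 0.

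The distance from the 5' end of the spliced mRNA showed the same on a finer scale. It was measured to the middle of the peak in the canonical GENCODE transcript and was chosen as a measure after the positions had been seen. A distance could be given to 27 of 36 shared, 60 of 82 galactose only and 137 of 157 low glucose only exonic peaks. The other peaks had their middle outside canonical exons or in those of several coding genes. Their places along the mRNA are not in the values below. The median distance was 83 nt in 27 shared peaks (interval 32 to 140), 100 nt in 60 galactose only peaks (interval 82 to 128) and 173 nt in 137 low glucose only peaks (interval 132 to 243). More than 200 nt from the 5' end lay 25% of the galactose only peaks and 46.7% of the low glucose only peaks, a difference of 21.7 points (interval 7.02 to 34.1). With 1 peak per gene, the one nearest the 5' end, the difference was 16 points (interval 1.24 to 28.7), and without ribosomal protein genes 24.4 points (interval 7.34 to 38.5). Beyond 1000 nt lay 0 of 60 galactose only peaks (interval 0 to 5.96%) and 17 of 137 low glucose only peaks (12.4%, interval 7.4 to 19.1%). Among peaks with a distance, the galactose only peak furthest from a 5' end was that of FEZF2, a transcription factor, at 678 nt. In low glucose only it was that of ZFHX3, a large zinc finger protein, at 11006 nt. The mRNAs differed in length too, with medians of 1752 nt in galactose only and 2059 nt in low glucose only, and the part of this in the distances was not tested. The 3 shared sites beyond 1000 nt were identical or shifted by 1 nt at either end. They lay in the 3'UTR of AJM1, a junction protein, and of AZIN2, an antizyme inhibitor, and in the coding sequence of CCDC78, a centriole protein, at 3273, 1969 and 1028 nt. Peaks over tRNA genes were kept out of this count, among them those of CTC1, whose 3'UTR holds tRNA genes.

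**Figure D3:**
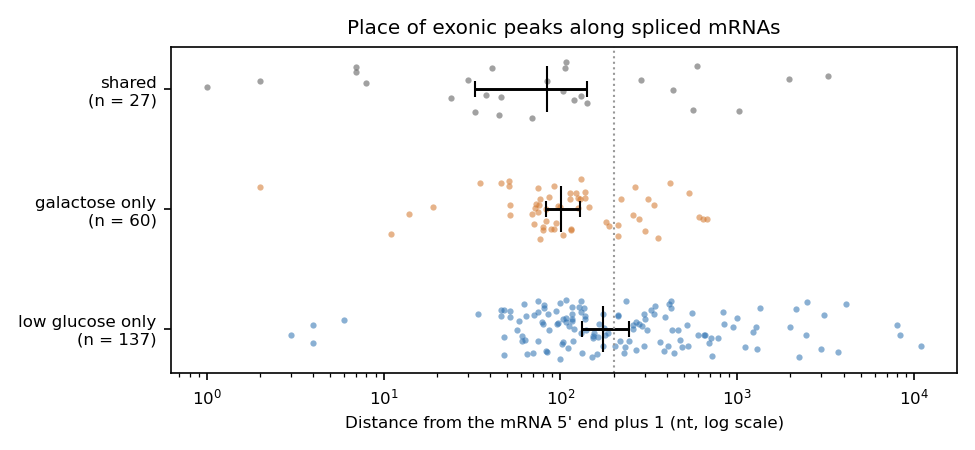
Distance of the middle of exonic peaks from the 5' end of the spliced mRNA (nt plus 1, log scale) for 27 shared, 60 galactose only and 137 low glucose only peaks, with the median and its 95% interval as black bars and 200 nt as a dotted line. Of the peaks drawn, no galactose only peak lies beyond 678 nt, whereas low glucose only peaks reach 11006 nt. Exonic peaks without a distance, 60 of 82 galactose only and 137 of 157 low glucose only peaks having one, are not drawn.

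The width of peaks differed as well. A width of 101 nt, read as an isolated crosslink site, was found in 75.9% of galactose only and 52.7% of low glucose only peaks, a difference of 23.1 points (interval 13.7 to 31.6). It was found in 43.8% of the shared peaks. Peaks over 150 nt made up 22.4% of shared, 3.45% of galactose only and 8.22% of low glucose only peaks. Of the 43 such shared peaks, 29 lay on tRNA genes. In exons of protein coding genes the median width was 101 nt in each group. The widest peaks of both lists were a low glucose only peak of 262 nt in the 5'UTR of LYN, which encodes a SRC-family kinase of myeloid cells, another of 246 nt in EEF2, and a galactose peak of 242 nt at RPL32 and its snoRNA SNORA7A, whose low glucose partner was 112 nt wide. Sequence that recurs in the genome, by more than 50% of the 30-mers of a peak, underlay 18.8% of shared, 19.3% of galactose only and 11.3% of low glucose only peaks. Reads from such places could have come from any of the copies.

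The letters around the sites had wide, overlapping intervals between the groups. The base just before the crosslink site was a G in 16 of 75 shared (21.3%), 25 of 94 galactose only (26.6%) and 36 of 135 low glucose only single-site peaks (26.7%). The enzyme used to trim the RNA, RNase T1, cuts after G. The AU-rich core ATTTA, searched on the gene strand, was in 9.41% of shared peaks (interval 5.48 to 14.8%), 4.76% of galactose only (interval 1.77 to 10.1%) and 4.69% of low glucose only peaks (interval 2.45 to 8.04%). Over all peaks of the pair with a gene strand it was in 6.93% on that strand and in 11.2% on either strand.

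Over genes, 647 had a peak in the pair of lists. Both lists named 232 of them (35.9%), galactose only 135 (20.9%) and low glucose only 280 (43.3%). The 367 genes of the galactose list were also in the low glucose list in 63.2% of cases, and the 512 genes of the low glucose list were in the galactose list in 45.3%. Protein coding genes numbered 121 in both, 99 in galactose only and 188 in low glucose only. Counting exonic peaks alone, 50 of 241 protein coding genes (20.7%, interval 15.8 to 26.4%) had one in each list. A gene found in a single list is a gene without a called peak in the other, and its level of binding there is not known.

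Ribosomal protein genes, which encode the protein part of the ribosome, were the largest group of mRNAs with peaks. Of 35 genes of the small subunit 17 had a peak, 11 in both lists (64.7%, beside 35.9% of all genes), 3 in galactose only and 3 in low glucose only. RPS27L, RPS21 and RPS28 were the galactose only members, and RPS3 was among the low glucose only ones. The large subunit had peaks in 24 of 53 genes, 9 in both (37.5%), 4 in galactose only (RPL23A, RPL35, RPL37A and RPLP1) and 11 in low glucose only. RPL8 led the latter with 3 peaks. Large subunit genes had 15 galactose and 35 low glucose peaks and small subunit genes 23 and 32, beside 337 and 484 peaks over all genes. Without peaks annotated to several genes, 4 large subunit genes were in both lists. Some of these genes carry snoRNAs in their introns, and their peaks can lie there.

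RPS29 shared a site 6 nt from its 5' end and had another in low glucose at 107 nt. RPS12 shared a site with its galactose middle at 40 nt, had a further galactose site at 50 nt in the next exon and further low glucose sites at 115 and 243 nt. RPS16 shared a site at 140 nt and differed downstream, with 337 nt in galactose and 290 and 440 nt in low glucose. In these 3 mRNAs each further low glucose site lay in the coding sequence, and the one of RPS12 at 243 nt was in recurrent sequence. Over the 36 protein coding genes with a shared exonic region, 11 had a further exonic peak in low glucose (30.6%, interval 16.3 to 48.1%). In galactose 6 had one (16.7%, interval 6.37 to 32.8%), in lists of 484 and 337 peaks. H3C4 and ENSG00000282988, both among these 6, were named for the same shared peak, as were VPS52 and RPS18. The counts are therefore of gene names, and the intervals treat such names as separate. LAPTM5, a lysosomal membrane protein of blood cells, and TRIM28, a transcriptional corepressor, were further genes with an extra low glucose site, at 93 and 691 nt. HSPD1, the mitochondrial chaperonin, had its extra site in galactose, at 70 nt.

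**Figure D4:**
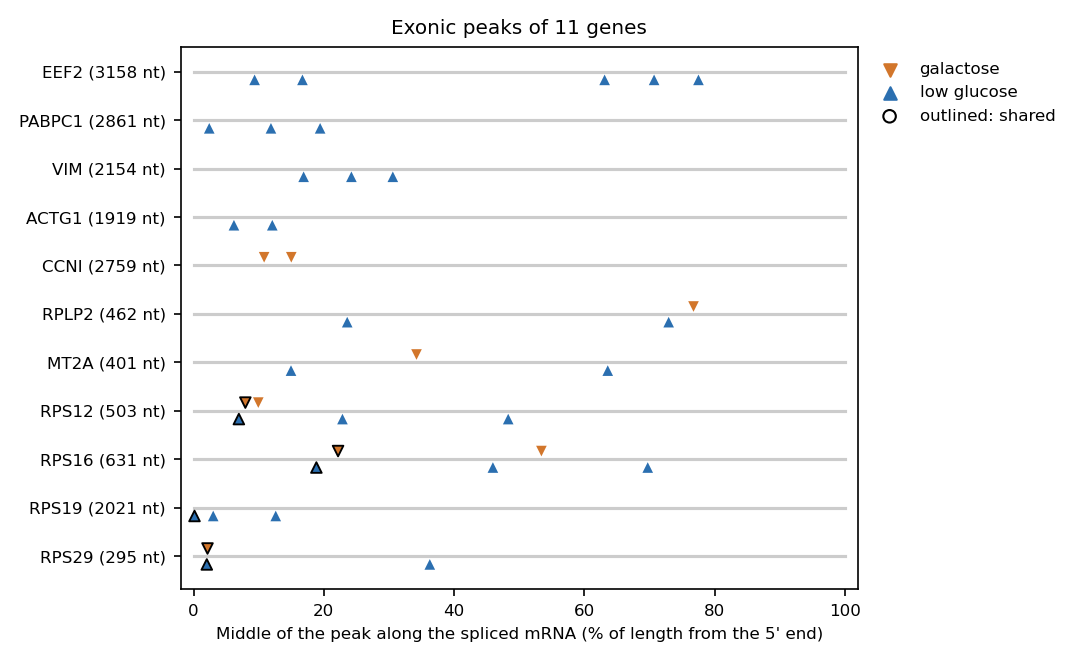
Middle of exonic peaks along the spliced mRNA (% of its length from the 5' end) for 11 genes, with galactose peaks as triangles above the line, low glucose peaks as triangles below it and shared peaks outlined. The 5 EEF2 peaks are all from low glucose, while RPS29 has an outlined site 6 nt from its 5' end in each list. Peaks whose middle lies outside the canonical exons are not drawn.

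The shared exonic sites could also be offset. Of 34 exonic pairs with a known gene strand, the middles lay within 2 nt of each other in 14. The low glucose middle lay more than 20 nt downstream in 10 and more than 20 nt upstream in 4. TKT, which encodes transketolase of the pentose phosphate route, had the largest step, with the galactose middle 6 nt and the low glucose middle 103 nt from the 5' end of the mRNA. KDELR1, a retrieval receptor of the endoplasmic reticulum, moved by 78 nt, CALR, the calcium-binding chaperone calreticulin, by 76 nt and ATP5F1D, a subunit of ATP synthase, by 55.5 nt, all downstream. In the other direction, TRIM28 had its low glucose middle at 391 nt and its galactose middle at 431 nt. The position was almost unmoved at NFKBIA (105 and 106 nt) and H3-3A, which encodes histone H3.3 (7 and 6 nt), and was identical at TMSB4X, thymosin beta-4 that binds actin (29 nt), and at PABPC4, a cytoplasmic poly(A)-binding protein.

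In 21 genes of both lists the peaks lay at different places without any overlap. RPLP2, a protein of the ribosomal stalk, had 1 galactose peak with its middle 354 nt from the 5' end and 4 low glucose peaks, of which one at 337 nt came closest, with an exon boundary between them and a gap of 42 nt in the genome. MT2A, a metallothionein that binds zinc and copper, had its galactose site at 137 nt, between low glucose sites at 60 and 255 nt. NEAT1, the lncRNA of nuclear paraspeckles, had 2 peaks in each list within a short stretch, the nearest 5 nt apart. ACTB, which encodes beta-actin, had a galactose peak in its 5'UTR and a low glucose peak in its coding sequence at 173 nt. RACK1, a scaffold protein on the ribosome, had its galactose peak at SNORD96A, a box C/D snoRNA in its intron, and its low glucose peaks in exons at 80 and 476 nt.

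Genes with the most peaks in galactose only had 2 each. CCNI had sites at 299 and 414 nt in its 5'UTR. SLC25A6, the ADP/ATP carrier of mitochondria, had sites in its coding sequence at 136 and 262 nt, both in recurrent sequence. CTC1, a protein of telomere maintenance, had its peaks over the tRNA genes TRT-AGT1-2 and TRI-AAT4-1. DGLUCY, a mitochondrial enzyme of D-glutamate breakdown, shared both of its peaks with the snoRNA SNORA11B. RPS27L completed these genes, with a coding sequence site at 85 nt and a 5'UTR site. Among the galactose only genes with 1 peak were AP2A1, a subunit of the clathrin adaptor, with a 5'UTR peak of 183 nt, and ATP5F1C, the gamma subunit of ATP synthase, with an intronic peak.

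EEF2 led the genes of low glucose only, with 5 peaks at 296, 528, 1993, 2233 and 2448 nt, all in the coding sequence. PABPC1, which binds poly(A) tails, had 3, at 69 and 340 nt in the 5'UTR and at 556 nt in the coding sequence, the last in recurrent sequence. VIM, which encodes the intermediate filament vimentin, had 3, at 364, 522 and 659 nt, where the antisense gene VIM-AS1 overlaps and cannot be told apart. ACTG1, which encodes gamma-actin, had 2, at 119 and 232 nt. Of these 13 sites of EEF2, PABPC1, VIM and ACTG1, 10 lay in coding sequence, 5 of them those of EEF2. Coding sequence held 59% of all low glucose only exonic peaks. Other genes with as many peaks, such as RPL8 with 3 and ALDOA with 2, are not in this count. Among initiation factors EIF1 (103 nt) and EIF3J (74 nt) had exonic peaks in low glucose only, whereas EIF4G1 in galactose and EIF4A1 in both lists had theirs over snoRNAs.

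Of the glycolysis genes 3 of 21 had a peak, all in low glucose only, where 43.3% of all genes lay, and 1 of them without peaks annotated to several genes. ALDOA, the aldolase, had peaks in the 5'UTR at 127 nt and in the coding sequence. ENO3, a muscle enolase, was named for a peak that also lies on PFN1, the actin-binding profilin. GAPDH had 1 peak, in exon 6 of 9 with its middle 406 nt from the 5' end. No gene of galactose breakdown, sugar transport or nutrient stress had a peak in the pair, nor had the mitochondrial genome. Among nuclear genes of the respiratory chain, ATP5F1D and CYC1, the heme protein cytochrome c1, were in both lists, ATP5F1C in galactose only, and NDUFS7 in low glucose only over an asparagine tRNA gene in its intron. Other genes the study had singled out were RPL13A, in both lists with 2 galactose and 5 low glucose peaks, 2 of the latter overlapping galactose peaks at SNORD32A and SNORD33, and MYC, in low glucose only. PKM and TNF had no peak in either list.

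Of 18 cytoskeletal genes, 8 had a peak, 2 in both lists, 0 in galactose only and 6 in low glucose only (75%, beside 43.3% of all genes), of which 3 were left without peaks annotated to several genes. The 6 were VIM, ACTG1, PFN1, TUBA1B (an alpha-tubulin), MYH9 (a non-muscle myosin) and FLNA (an actin crosslinker), the last with a 3'UTR peak 8308 nt from the 5' end. Metallothioneins had MT2A in both lists and MT1E (135 nt, in recurrent sequence), MT1H (234 nt) and MT1X (136 nt) in low glucose only, all in coding sequence. Histone genes had peaks in 9, of which H1-2, H3-3A and H3C4 were in both lists, H4C2 in galactose only and 5 in low glucose only. For splicing and hnRNP proteins the counts were 1 in both, 2 in galactose only (HNRNPU among them) and 2 in low glucose only (HNRNPAB and SRSF4), and the member in both, LUC7L2, had its peak over an arginine tRNA gene. Of 23 myeloid and leukaemia genes, PRTN3, the granule protease proteinase 3, was in galactose only and CEBPA, a regulator of granulocyte fate, and MYC in low glucose only. The PRTN3 peak lay in recurrent sequence, and those of CEBPA and MYC were also annotated to another gene. Of 18 markers of other cell types CDH1 alone had a peak, which lay over a 5S rRNA pseudogene inside it. A list of bound places is no measure of expression, so these markers check the identity of the cells only weakly.

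**Figure D5:**
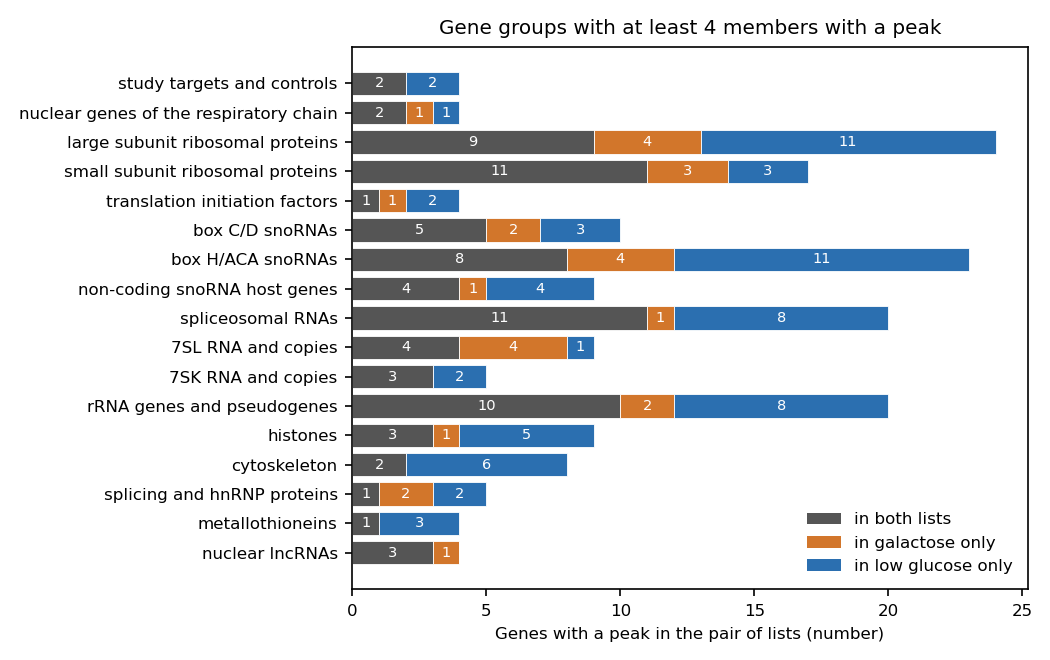
Number of genes with a peak in both lists, in galactose only and in low glucose only, for each gene group with at least 4 such members. Small subunit ribosomal proteins (11, 3 and 3) and spliceosomal RNAs (11, 1 and 8) had most of their members in both lists, and cytoskeletal genes (2, 0 and 6) in low glucose only.

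The structural RNA groups are given by their members in both lists, in galactose only and in low glucose only, beside 35.9, 20.9 and 43.3% of all genes. Spliceosomal RNAs had peaks in 20 genes, 11 in both lists (55%), 1 in galactose only (RNU6-1) and 8 in low glucose only. RNU11, whose U11 RNA belongs to the minor spliceosome, had 2 shared regions, and RNU12, its U12 partner, and RNU4-1, a U4 gene, were in low glucose only. The 7SL RNA of the signal recognition particle and its copies had 9 genes with peaks, 4 in both lists, 4 in galactose only and 1 in low glucose only. Among the groups with at least 5 such genes, this was the one with more members in galactose only than in low glucose only, and of its single-list copies RN7SL396P, RN7SL674P, RN7SL752P and RN7SL151P had peaks in recurrent sequence, so that 1 and 0 single-list members were left without such peaks. The 45S units likewise held 6 galactose only and 3 low glucose only peaks, a difference in share of 3.11 points (interval 0.15 to 7.76). It is 1 of 96 differences computed, and no count without recurrent sequence is given for these peaks. The 7SK RNA and its copies counted 3 in both, 0 in galactose only and 2 in low glucose only. Of the 3, 7SK and RN7SK are 2 names given to the same shared peak. Box C/D snoRNAs counted 5, 2 and 3, box H/ACA snoRNAs 8, 4 and 11, and rRNA genes and pseudogenes 10, 2 and 8. Peaks on these genes were often annotated to another gene too, and without peaks annotated to several genes the counts were 1, 0 and 0 for box C/D snoRNAs, 0, 0 and 0 for box H/ACA snoRNAs, 3, 2 and 3 for rRNA genes and 5, 0 and 3 for spliceosomal RNAs. TERC, the RNA of telomerase, had its peak in galactose only. No Y RNA, RNase P or RNase MRP gene had a peak in the pair.

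Of the peaks in introns away from small RNA genes, 17 of 47 in galactose and 56 of 87 in low glucose were not shared, and 20 of the 31 overlapping pairs had identical ends. Of these, INSIG2, a brake on sterol synthesis, shared a peak of 102 nt (chr2:118089555-118089656) and PPARA, a lipid-sensing nuclear receptor, another of 102 nt (chr22:46180749-46180850). PXN, the focal adhesion protein paxillin, shared a single site of 101 nt. These 3 genes were chosen after their positions were seen. Of lncRNAs, MALAT1 of nuclear speckles had an identical peak of 144 nt in both lists and a further low glucose peak of 120 nt. SOX2-OT had 3 shared regions, which lay over the U6 gene RNU6-4P and a 5S pseudogene. CROCC, which encodes the ciliary rootlet protein, AGBL5, a tubulin-modifying enzyme, and LINC00324 had 3, 2 and 2 shared regions, all over tRNA genes.

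The ferritin mRNAs, which fall outside the rule for named genes and were chosen after their positions were seen, had peaks over like sequence in different lists. FTH1, the heavy chain of the iron store ferritin, had a single-site peak in its 5'UTR in galactose only (chr11:61967516-61967616, minus strand), in sequence that recurs in the genome. FTL, the light chain, had a peak of 174 nt in its 5'UTR in low glucose only (chr19:48965256-48965429, plus strand). Both peaks cover the iron-responsive element, the hairpin through which iron regulatory proteins control ferritin translation. The windows of 30 nt shown here, chr11:61967573-61967602 and chr19:48965335-48965364, hold its loop letters CAGTG in capitals. In FTH1 the motif began 24 nt before the crosslink site, and in FTL 5 nt after the middle of the peak. On the gene strand CAGTG was in 80 of 722 peaks of the pair (11.1%) and on either strand in 23.1%.
FTH1: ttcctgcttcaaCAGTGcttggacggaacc
FTL: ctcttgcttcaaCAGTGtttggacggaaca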

How the data were processed

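The authors crosslinked MOLM-13 cells, precipitated GAPDH with an antibody, trimmed the bound RNA with RNase T1 and sequenced it. The labels describe total RNA isolation, removal of rRNA and a stranded kit for the same samples. Per the submitters' processing notes, reads were trimmed or mapped with cutadapt and STAR, whose versions are not given, on hg38 (GRCh38). The study's methods describe crosslink sites that were called, merged where close, and extended where isolated. An extension of 50 nt on each side, of merged sites too, was inferred here from the smallest width and was assumed for the spans on tRNA genes. The deposited lists join both samples of a condition and hold positions, gene identifiers and symbols, with no header, count or score. The rule of joining and the depth are not given in the sources used here. Starts were taken to count from 1, and the end base was included.

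Of 1072 pairs of a peak and a gene, 1064 had their identifier in GENCODE release 44, and the peak met that gene in each of these. Of 844 symbols given, 843 matched. GENCODE gave strand, biotype and transcripts, and the 443 nuclear tRNA genes and the 45S units from the RefSeq table of GRCh38.p14, which gives no strand. The lists name no nuclear tRNA gene, and peaks over them carry the names of genes around them. The place of the middle was read over all transcripts, CDS taking priority over 5'UTR, 3'UTR and intron in that order. A shared place was described by its galactose peak. With the samples joined there are no replicates, so no test of the conditions was made, and p-values are not given. Medians carry binomial 95% intervals. In simulated lists these intervals covered the true median in 97% of draws, and those of a difference of shares in 95.5%.

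The members, gene groups, the rule for named genes and the alternatives were chosen with earlier results of these data known. The rule named the study's targets and controls, the 10 genes with the most shared regions, with the most peaks in either list alone or with peaks at other places, up to 4 members of each group, up to 30 genes with a shared exonic region away from small RNA genes, and the 3 widest peaks of each list. Alternatives covered other overlap rules, class and place orders, and lists without tRNA genes, small RNA genes, recurrent sequence or peaks annotated to several genes. Python 3.11.15, numpy 2.4.6, pandas 2.3.3, scipy 1.17.1, matplotlib 3.10.9 and samtools 1.23.1 were used.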

Additional observations from a re-analysis of the deposited data

How the results depend on the processing

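No paired analysis was possible because the deposited lists join both samples of each condition, and for the same reason no sample could be left out in turn. Of 169 recomputed values for lists, kinds and places, 145 stayed within the 95% interval of the reported value, or within 1.5 times of it for counts. A further 24 moved beyond that. Only the differences between galactose only and low glucose only, with 8 alternatives each, could change sign, and 0 did. Some of the 145 could not move, such as the single-list counts of gene group members when overlapping peaks were required. The share of galactose and of low glucose peaks that were shared was 33.8% and 23.6% with identical start and end required, 65.6% and 47.5% with gaps of up to 1000 nt allowed, 49.6% and 32.5% without tRNA genes, 42.5% and 25.1% without small RNA, rRNA or tRNA genes, and 30.5% and 18.7% over exonic peaks alone. Genes in both lists made up 31% without tRNA genes and 29.7% over protein coding genes. By class of annotated gene, protein coding genes took 47.4% of shared, 71% of galactose only and 74.7% of low glucose only peaks. Placed before small RNA, they took 58.3, 78.6 and 82.9%. Counting only peaks with the middle inside a tRNA gene, the tRNA share was 20.3% of shared and 0.685% of low glucose only peaks. The median GC content of shared peaks was 56.9% in a window of 51 nt and 59.4% without small RNA, rRNA or tRNA genes, when that of low glucose only peaks was 64.4%, and a G before the middle then stood in 11.9% of shared sites. Without peaks annotated to several genes, members of gene groups numbered 38 in both lists, 17 in galactose only and 43 in low glucose only, against 85, 29 and 79 with all peaks. Of the recomputed counts of members in single groups, 140 stayed within 1.5 times and 37 moved further. The 5'UTR difference between galactose only and low glucose only stayed at 14 to 21.3 points. The difference beyond 200 nt stayed at 16 to 24.4 points. Intervals lay above 0 under all 8 alternatives of each. For the 5'UTR and CDS shares, the alternative without tRNA genes could change nothing, because peaks over tRNA genes had already been left out. With 1 peak per gene, the interval of the 5'UTR difference came close to 0 (0.0211 to 27.4). The CDS difference ranged from -15.7 to -7.93 points, and its interval left out 0 in 3 of 8. The alternatives on distance, and those without ribosomal proteins, with 1 peak per gene, without recurrent sequence or without several genes for the 5'UTR and CDS shares, were chosen after seeing the data. Without read counts, a place missing from a list may be unbound or too shallowly sequenced to be called.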
